A study of Mus musculus with 12 samples.

Results

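The 54 genes described here are the cell cycle and proliferation genes: listed replication and mitosis genes that had at least 10 counts in at least 3 of 12 libraries. All 54 listed genes passed this rule, as did 14389 of the 21878 genes in the count table, and all 54 were among the 14330 genes tested. They comprise 20 genes of S phase (entry into it, licensing of replication origins and DNA synthesis), 33 genes of mitosis (its drivers, the anaphase-promoting complex, kinetochores, spindle and chromosomes) and the G1 cyclin Ccnd1. Total RNA was sequenced from liver samples whose label names Hepa1-6, a cell line derived from a mouse hepatoma. The 4 groups had 3 libraries each and are called IFNa (mouse interferon alpha), antiPD1 (an antibody against PD-1, an inhibitory receptor of T cells), combination (IFNa together with the antibody) and untreated. The labels give no dose or time, and do not say whether the replicates came from separate animals or cultures, so p-values measure only the spread between these samples.

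A dividing cell passes from G1 into S phase, where DNA is copied, and through G2 into mitosis, where the copies are separated. Cyclins bind cyclin-dependent kinases and drive each step. Transcription of the S phase genes is switched on mainly by E2F factors, whereas many mitosis genes are held back in G1 by the DREAM complex and switched on later by MYBL2 and FOXM1. Resting hepatocytes of the adult liver express few of these genes, and hepatoma cells express them because they divide.

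Library totals were 31.3 to 38.5 M counts (M, mega), and levels are given as CPM, counts per M after TMM scaling. The libraries held transcripts of a list of hepatoma genes throughout. Summed over its 5 measured genes, the level was 18363 to 22731 CPM in IFNa and 14102 to 25712 CPM in antiPD1 libraries. It was 13330 to 18672 CPM in combination and 21065 to 23797 CPM in untreated libraries. The serum protein genes Alb, Ttr and Apoa1 of this list were highest in antiPD1 replicate 3 (15968, 758.8 and 1125 CPM). That library also had the highest sum of mature hepatocyte genes, given below. The sum therefore does not measure hepatoma cells alone. The libraries also held leukocyte transcripts, although the label names a cell line. Summed over Ptprc, Coro1a and Laptm5, genes found in all leukocytes, the level was 73.2, 160 and 157 CPM in IFNa, 227, 275 and 728 CPM in antiPD1, 352, 336 and 336 CPM in combination and 100.3, 92.3 and 149.9 CPM in untreated libraries. A library is therefore a mixture, and fewer cells of a type cannot be told apart from less RNA per cell. Replicate 1 of IFNa, replicate 3 of antiPD1 and replicate 1 of combination stood apart from their groups. Summed over 8 genes of mature hepatocytes, IFNa replicate 1 had 1936 CPM against 402.5 and 359.6 CPM in the other IFNa libraries, antiPD1 replicate 3 had 3265 CPM against 832 and 350 CPM in the other antiPD1 libraries, and combination replicate 1 had 1979 CPM against 466.8 and 764.1 CPM in the other combination libraries. Results that rest on these libraries are given with and without them.

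Promoters were compared for the sequence elements that textbooks assign to the S phase and mitosis programmes. The 250 bases upstream of the start were taken from RefSeq (GRCm38.p6) and matched 45 of 54 members by symbol. Ccnd1, Ccne2, Mcm4, Ccna2, Cdc25c, Foxm1, Aurkb, Kif20a and Tpx2 had no entry. The letters searched on both strands were TTTGAA or TTCGAA for the CHR, the cell cycle genes homology region bound by DREAM, CCAAT for the box bound by NF-Y, and TTTCGCGC, TTTGGCGC, TTTCCCGC or TTTGCCGC for E2F. A CHR was found in 12 of 27 mitosis genes (44.4%) and in 5 of 18 S phase genes (27.8%), against 17.1% of all 32851 promoters in the table. CCAAT was found in 21 of 27 mitosis genes (77.8%) and in 12 of 18 S phase genes (66.7%), against 33.8% of all promoters. An E2F match was found in 1 of 27 mitosis genes (3.7%), Cdk1, and in 5 of 18 S phase genes (27.8%), against 1.86% of all promoters. The S phase genes were Cdk2, Cdc6, Mcm5, Mcm6 and Mcm7. These are matches of letters, not tested sites. A member with more than 1 promoter, of which there were 4, counted if any of them matched. The share over all was counted per promoter, so the member shares can be somewhat raised.

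The 6 promoters printed here let the layout be seen, 5′ to 3′ on the gene's strand and ending at the base before the start, with matches in capitals (ATTGG is CCAAT and TTCAAA is TTTGAA on the other strand). Ccnb1 and Cdc20 are mitosis genes that fell in antiPD1 libraries, and Rrm2 and Pcna are S phase genes with a match. Top2a and Mcm6 were added after their matches were seen, as the members with the most CHR and the most E2F matches. The start used here is that of RefSeq. Gene coordinates are from GENCODE, and by these Ccnb1, Cdc20, Rrm2 and Pcna reach into the stretch printed.
Ccnb1, chr13:100786487-100786736, minus strand: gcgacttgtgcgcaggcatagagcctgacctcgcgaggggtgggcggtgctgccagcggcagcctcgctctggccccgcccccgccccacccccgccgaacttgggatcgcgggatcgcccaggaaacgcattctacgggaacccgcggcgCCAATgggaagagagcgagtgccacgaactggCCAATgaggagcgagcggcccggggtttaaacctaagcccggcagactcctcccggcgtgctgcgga
Cdc20, chr4:118437344-118437593, minus strand: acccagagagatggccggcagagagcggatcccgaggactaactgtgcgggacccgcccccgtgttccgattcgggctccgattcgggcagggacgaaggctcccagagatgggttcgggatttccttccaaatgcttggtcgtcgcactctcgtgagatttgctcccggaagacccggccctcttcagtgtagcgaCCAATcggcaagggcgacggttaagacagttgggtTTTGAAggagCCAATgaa
Top2a, chr11:99024190-99024439, minus strand: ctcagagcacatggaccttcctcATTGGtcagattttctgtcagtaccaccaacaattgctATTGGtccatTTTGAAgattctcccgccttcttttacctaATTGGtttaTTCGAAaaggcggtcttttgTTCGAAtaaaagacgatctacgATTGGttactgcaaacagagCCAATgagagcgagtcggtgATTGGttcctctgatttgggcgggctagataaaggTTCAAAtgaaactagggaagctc
Rrm2, chr12:24708004-24708253, plus strand: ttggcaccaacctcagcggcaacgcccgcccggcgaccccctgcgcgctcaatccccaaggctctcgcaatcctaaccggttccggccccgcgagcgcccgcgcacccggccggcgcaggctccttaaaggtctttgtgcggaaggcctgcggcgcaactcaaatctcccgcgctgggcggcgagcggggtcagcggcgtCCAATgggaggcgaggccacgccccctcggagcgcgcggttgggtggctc
Pcna, chr2:132253181-132253430, minus strand: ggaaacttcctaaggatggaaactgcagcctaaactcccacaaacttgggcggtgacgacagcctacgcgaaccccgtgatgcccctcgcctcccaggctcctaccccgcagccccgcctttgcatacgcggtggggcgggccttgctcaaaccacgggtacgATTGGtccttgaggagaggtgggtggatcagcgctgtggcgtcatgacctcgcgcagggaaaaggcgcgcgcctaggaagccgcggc
Mcm6, chr1:128359706-128359955, minus strand: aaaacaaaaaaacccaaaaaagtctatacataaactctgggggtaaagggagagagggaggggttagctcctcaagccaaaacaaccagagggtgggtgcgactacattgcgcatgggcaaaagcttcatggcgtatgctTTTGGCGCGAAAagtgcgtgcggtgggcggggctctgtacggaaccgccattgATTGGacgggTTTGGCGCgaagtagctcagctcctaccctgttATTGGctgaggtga
Ccnb1 had 2 CCAAT boxes and none of the 2 CHR forms searched. Cdc20 had 2 CCAAT boxes and a CHR that began 18 bases upstream of the start. Top2a had 4 CHR and 6 CCAAT matches. Mcm6 had 3 E2F matches, of which 2 overlap on opposite strands in the run TTTGGCGCGAAA, and 2 CCAAT boxes, whereas Rrm2 and Pcna each had 1 CCAAT box and no E2F match.

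Levels between genes were compared per length, as FPKM (fragments per kilobase and M fragments). In untreated libraries the most abundant member was Ube2c, the E2 enzyme of the anaphase-promoting complex, with 125.6 ± 18.8 FPKM (SD, n = 3 here and throughout). It was followed by Pcna, the sliding clamp of DNA polymerase, with 105.6 ± 9.81 FPKM, a spread that overlaps that of Ube2c. Ccnd1 had 82.7 ± 14.6 FPKM. At the low end were the thymidylate synthase gene Tyms (2.56 ± 0.298 FPKM), the origin licensing factor Cdc6 (2.64 ± 0.148 FPKM) and the phosphatase Cdc25c (2.79 ± 0.404 FPKM), whose spreads overlap. The proliferation markers Mki67 and Top2a had 16.1 ± 1.63 and 51.2 ± 7.04 FPKM in untreated libraries. Pcna, Tyms, Ccnb1 and Ccnb2 have named pseudogene copies that can share their reads, so their values are uncertain.

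**Figure D1:**
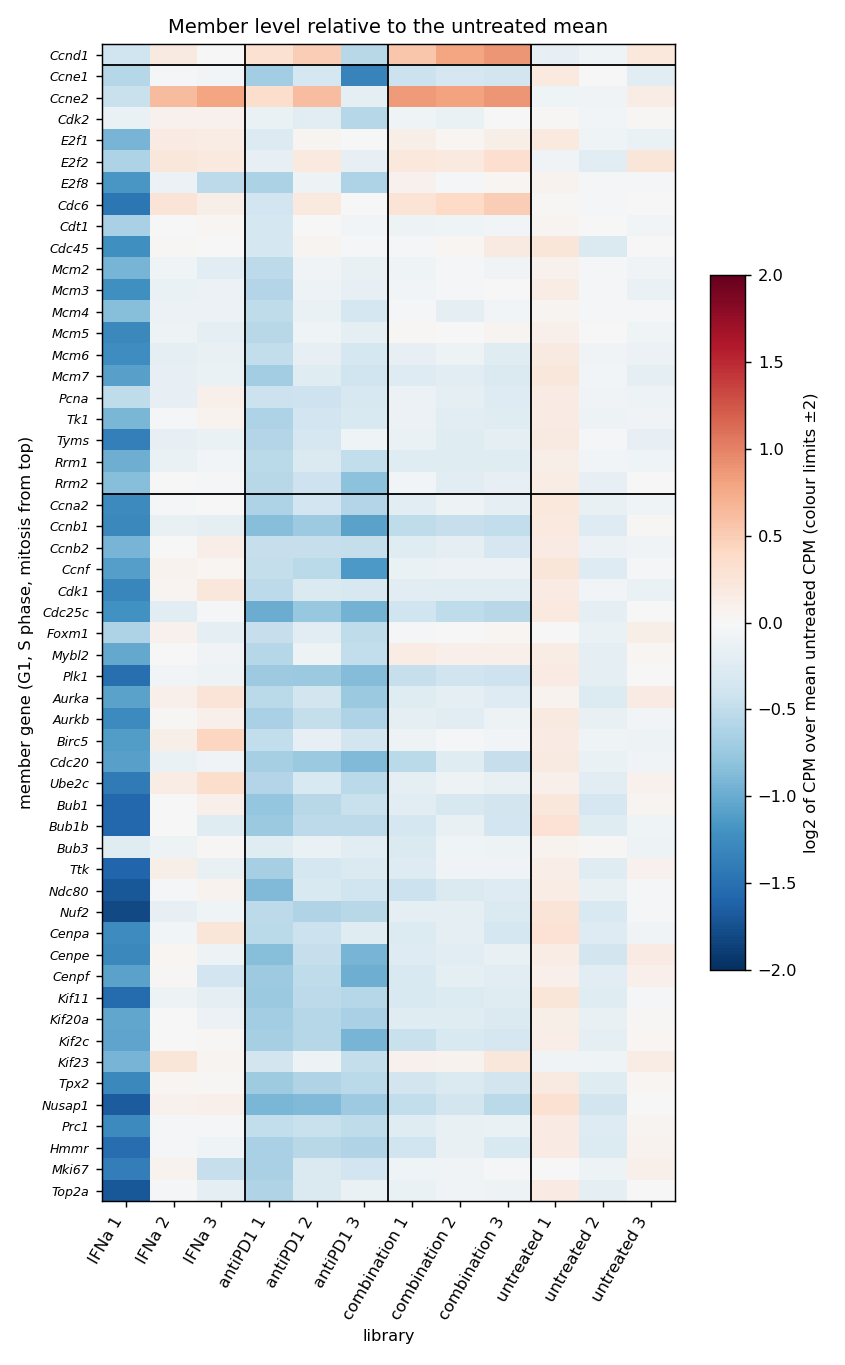
Level of each of the 54 members (rows) in each of the 12 libraries (columns), as log2 of its CPM over the mean CPM of the untreated libraries. The column of IFNa replicate 1 is the lowest for 49 of 54 members, the 3 antiPD1 columns are lower than untreated in most mitosis rows, and Ccnd1 and Ccne2 are higher in all 3 combination columns.

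AntiPD1 libraries had lower levels of mitosis genes than untreated libraries, and 3 of these genes passed the test. Ccnb1, the cyclin whose kinase complex starts mitosis, fell to 53.4 ± 6.39 CPM in antiPD1 libraries, against 98.1 ± 14.9 CPM in untreated libraries. Cdc25c, the phosphatase that activates that complex, and Cdc20, which activates the anaphase-promoting complex to end mitosis, fell as well. All 33 mitosis genes and 19 of 20 S phase genes had a negative log2 fold change, with a median of -0.56 over the mitosis genes and -0.31 over the S phase genes, against -0.01 over all genes tested. Pan-leukocyte genes had summed levels of 227 to 728 CPM in the antiPD1 libraries, against 92.3 to 149.9 CPM in untreated libraries. All 3 of them rose. Mature hepatocyte genes summed to 832, 350 and 3265 CPM in antiPD1 libraries, against 233.6, 305.3 and 595.8 CPM in untreated libraries. All 8 had a positive log2 fold change and 0 passed. Fibroblast genes summed to 2125, 1413 and 4012 CPM in antiPD1 libraries, against 685.6, 432.9 and 1623 CPM in untreated libraries. All 5 had a positive log2 fold change and 2 passed. The part of these lists in the lower levels of S phase and mitosis genes was not tested. Of the hepatoma genes, the fetal serum protein Afp had 7323, 6255 and 7478 CPM in antiPD1 libraries, against 10866, 10763 and 9612 CPM in untreated libraries (log2 fold change -0.57, adjusted p = 0.0281, edgeR). The oncofetal surface protein Gpc3 had 276.9, 269.5 and 382.2 CPM in antiPD1 libraries, against 503.6, 463.7 and 453.8 CPM in untreated libraries (-0.61, adjusted p = 0.140). Both were lower in every antiPD1 library than in any untreated one, whereas the serum proteins Alb, Ttr and Apoa1 had log2 fold changes of 0.08, 1.96 and 0.56 and did not pass. The part of these genes in the lower levels of mitosis genes was not tested.

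The 3 genes that fell separated the groups in every library. Ccnb1 (chr13:100778650-100786570) had 54.1, 59.4 and 46.7 CPM in antiPD1 libraries, against 112, 82.5 and 99.8 CPM in untreated libraries. Its log2 fold change was -0.88 ± 0.25 (SE; adjusted p = 0.0387, edgeR quasi-likelihood test over all 14330 genes). Each antiPD1 library lay below each untreated one. Cdc25c had 5.78, 6.79 and 5.94 CPM in antiPD1 libraries, against 13.1, 9.99 and 11.4 CPM in untreated libraries (-0.90 ± 0.26, adjusted p = 0.0436). Cdc20 (chr4:118432901-118437352) had 47.9, 45.2 and 41.1 CPM in antiPD1 libraries, against 85.8, 69.0 and 71.9 CPM in untreated libraries (-0.76 ± 0.22, adjusted p = 0.0438). The exons of Cdc20 overlap those of Elovl1 on the opposite strand by 53 bases, and whether reads were counted by strand is not given.

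The share of members called lower, 3 of 54 or 5.56%, was close to the 5.08% called lower among all genes, and 0 members were called higher against 9.76%. What set the members beside all genes was direction and separation. A negative log2 fold change was found in 52 of 54 members (96.3%), against 51.3% of all genes. All 3 antiPD1 libraries lay below all 3 untreated ones for 41 of 54 members (75.9%), against 18.5% of all genes. The 41 comprised 30 of 33 mitosis genes and 11 of 20 S phase genes. Such shares, here and below, describe the members and are no test. The members were chosen with earlier results of these data known, and 1 library can shift most of them at once. In IFNa libraries 52 of 54 members also had a negative log2 fold change, and those averages rested mostly on 1 library. An unadjusted p under 0.05 was reached by 17 members (31.5%) and by 4854 of 14330 genes (33.9%), so the members showed no excess by this measure.

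The number of calls depended on single libraries. With IFNa replicate 1 left out, which is in neither group but adds to the shared estimate of spread, 32 members were called lower in antiPD1, among them 25 mitosis and 7 S phase genes, when 8.7% of all genes were called lower. With that library and antiPD1 replicate 3 both left out, 27 members were called lower (21 mitosis, 6 S phase) and Ccne2 higher, against 4.54% of all genes lower and 6.13% higher. With combination replicate 1 left out as well, 19 members were called lower (16 mitosis, 3 S phase) and Ccne2 higher, against 3.53% of all genes lower and 5.17% higher. No member was called without antiPD1 replicate 1 or 3, where 5.08% and 0.884% of all genes were called lower, or without untreated replicate 1 or 2, where 0.0206% and 0.0275% were. None was called without combination replicate 1, 2 or 3 either, against 3.36%, 2.93% and 2.98% of all genes lower. Without IFNa replicate 2 the members called were Ccnb1 and Cenpf (3.61% of all genes lower), and without untreated replicate 3 Ccne1 (6.31%). Without IFNa replicate 3 they were Ccnb1, Cdc25c and Cdc20 (4.13%). Without antiPD1 replicate 2 they were Ccnb1, Ccne1 and Cenpf (4.95%), and Cdc25c (adjusted p = 0.0535) and Cdc20 (adjusted p = 0.0680) missed the threshold. Cdc25c and Cdc20 each lost their call in 10 of the 12 fits that left out 1 library, and Ccnb1 in 8.

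Other fits also moved the count. No member was called when antiPD1 and untreated libraries were fitted alone, where Ccnb1, Cdc25c and Cdc20 each had an adjusted p of 0.107 and 0% of all genes passed, or by limma on the deposited FPKM, as log2(FPKM + 1), where 2.71% of all genes were called lower and 5.57% higher. DESeq2 called 9 members lower, against 8.39% of all genes. The median over mitosis genes moved only between -0.66 and -0.43 as each library was left out, and that over S phase genes between -0.36 and -0.22.

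Within mitosis, the genes were grouped by function. The 12 genes grouped as drivers of G2 and mitosis included Aurkb, Birc5 and Ccnf. Their median log2 fold change was -0.53 in antiPD1 libraries relative to untreated. It was -0.56 over the 9 kinetochore and checkpoint genes and -0.61 over the 8 spindle and midzone genes. The 2 genes of the anaphase-promoting complex had a median of -0.61 and the 2 chromosome genes, Mki67 and Top2a, of -0.38. The differences between these groups were not tested. Cenpf, a large kinetochore protein, had 56.4, 65.6 and 47.3 CPM in antiPD1 libraries, against 100.1, 79.8 and 100.8 CPM in untreated libraries (-0.73 ± 0.23, adjusted p = 0.0536). Kif20a, the kinesin of the central spindle, had 47.6, 51.4 and 49.0 CPM in antiPD1 libraries, against 83.5, 68.9 and 77.7 CPM in untreated libraries (-0.64 ± 0.20, adjusted p = 0.0588). Both were lower in every antiPD1 library than in any untreated one, and both narrowly missed the threshold. The exons of Kif20a overlap those of Cdc23 on the opposite strand by 1271 bases. Kif2c, a microtubule depolymerase (-0.72, adjusted p = 0.0600), and the mitotic kinase Plk1 (-0.78, adjusted p = 0.0854) were close behind. The smallest difference was that of the checkpoint protein Bub3 (-0.19 ± 0.09).

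The genes most used as proliferation markers did not pass in antiPD1 against untreated libraries. Mki67, the Ki-67 antigen that coats mitotic chromosomes, had 197, 253 and 236 CPM in antiPD1 libraries, against 309, 287 and 331 CPM in untreated libraries (-0.44 ± 0.27, adjusted p = 0.273). Top2a, which untangles sister chromatids, had 310.5, 385.3 and 426.4 CPM in antiPD1 libraries, against 523.5, 411 and 474 CPM in untreated libraries (-0.33 ± 0.32, adjusted p = 0.499). The groups were separate for Mki67 and overlapped for Top2a. Cdk1, the kinase that Ccnb1 binds, had 86.8, 102 and 100.6 CPM in antiPD1 libraries, against 140.2, 120.7 and 114 CPM in untreated libraries (-0.37 ± 0.29, adjusted p = 0.387). These log2 fold changes lie within 1 SE of the mitosis median of -0.56.

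No S phase gene passed in antiPD1 against untreated libraries. Ccne1, the cyclin that starts S phase with Cdk2, came closest, with 22.5, 28.6 and 14.4 CPM in antiPD1 libraries, against 41.5, 36.5 and 31.1 CPM in untreated libraries (-0.74 ± 0.23, adjusted p = 0.0517). The DNA synthesis genes came next, with a median log2 fold change of -0.43 over 5 genes. Rrm2, the small subunit of ribonucleotide reductase, had 76.4, 84.0 and 63.7 CPM in antiPD1 libraries, against 124.8, 100.4 and 112 CPM in untreated libraries (-0.59 ± 0.20, adjusted p = 0.0673). Pcna had 121, 123 and 131 CPM in antiPD1 libraries, against 182.5, 155 and 151 CPM in untreated libraries (-0.38 ± 0.14, adjusted p = 0.0801). In these 3 genes each antiPD1 library was below each untreated library.

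The licensing genes, which load the replicative helicase onto DNA, had a median of -0.26 over 9 genes. Mcm7, a subunit of that helicase, had 156.5, 214 and 192 CPM in antiPD1 libraries, against 296, 243 and 221.5 CPM in untreated libraries (-0.43 ± 0.22, adjusted p = 0.186). Mcm2, another subunit, had 104.5, 144 and 136 CPM in antiPD1 libraries, against 159.5, 149 and 144.3 CPM in untreated libraries (-0.24 ± 0.19, adjusted p = 0.401). The lowest antiPD1 library was replicate 1 for both. E2f1, the activator of the S phase programme, had 26.6, 33.2 and 32.2 CPM in antiPD1 libraries, against 36.6, 30.3 and 29.3 CPM in untreated libraries, and the groups overlapped (-0.07 ± 0.24, adjusted p = 0.867). The exons of Mcm7 overlap those of Ap4m1 and Cops6 on the opposite strand by 321 and 64 bases.

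**Figure D2:**
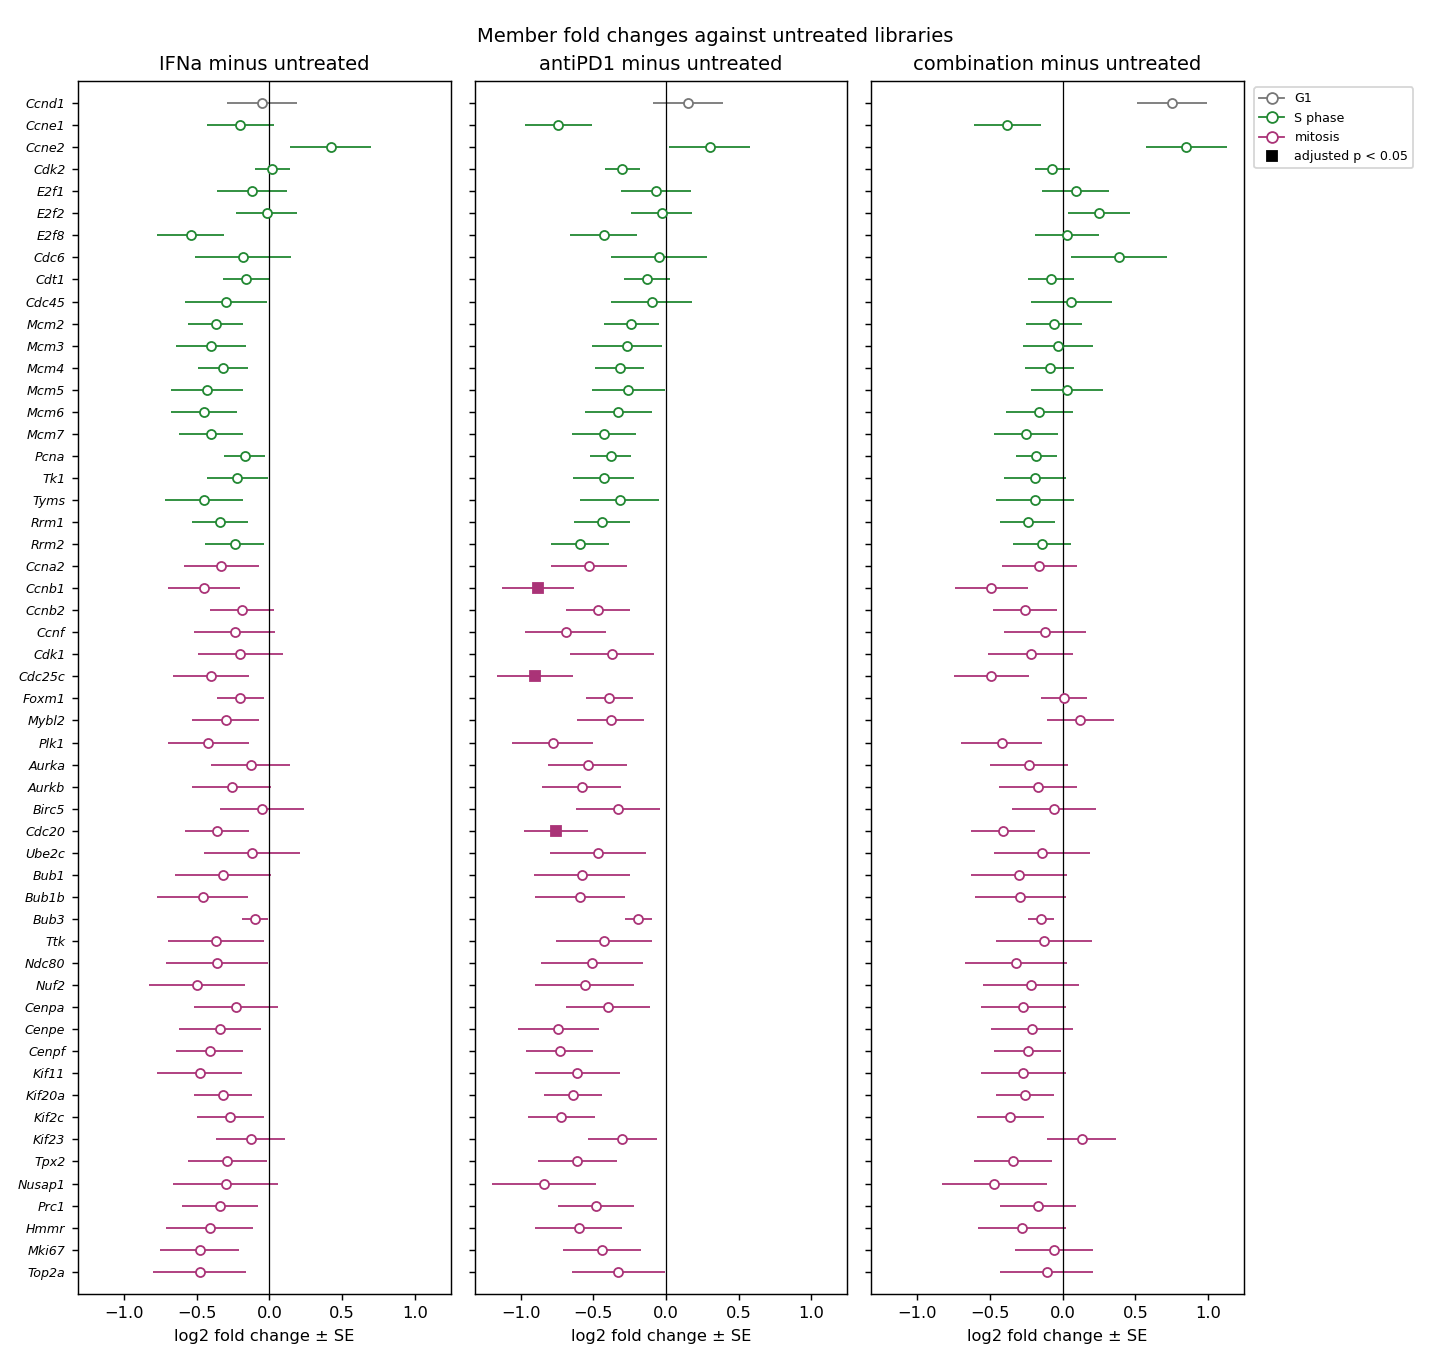
Log2 fold change with its SE of each member against untreated libraries, for IFNa, antiPD1 and combination, coloured by phase. Filled squares mark the 3 genes with an adjusted p below 0.05, Ccnb1, Cdc25c and Cdc20 in antiPD1, where all 33 mitosis genes lie left of 0.

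IFNa libraries gave no call against untreated libraries, and their lower averages rested mostly on 1 library. Of 54 members 52 (96.3%) had a negative log2 fold change, against 48.2% of all genes. The median was -0.27 over S phase and -0.32 over mitosis genes. edgeR called 0 members and 0% of all genes in either direction, with 1 member and 801 of all genes at an unadjusted p under 0.05. That member was E2f8, a repressor of E2F targets (-0.54 ± 0.23, unadjusted p = 0.0361, adjusted p = 0.885). The 3 IFNa libraries lay below all untreated ones for 5 members (9.26%), all of them S phase genes, against 5.22% of all genes.

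IFNa replicate 1 had the lowest level of all 12 libraries for 49 of 54 members. Relative to the untreated mean, its S phase genes had a median of 52.5% and its mitosis genes 41.2%. In IFNa replicates 2 and 3 the medians were 96.1% and 97.1% for S phase and 99.2% and 98.3% for mitosis genes. Top2a had 145, 455 and 410.5 CPM in IFNa libraries, against 523.5, 411 and 474 CPM in untreated libraries (-0.48 ± 0.32, adjusted p = 0.885). Mki67 had 118, 324 and 224 CPM in IFNa libraries, against 309, 287 and 331 CPM in untreated libraries (-0.48 ± 0.27, adjusted p = 0.885). Ccnb1 had 40.1, 88.9 and 86.9 CPM in IFNa libraries, against 112, 82.5 and 99.8 CPM in untreated libraries (-0.45 ± 0.25, adjusted p = 0.885). In these genes replicate 2 lay within or close to the untreated range, and replicate 1 far below it. Replicate 3 lay within or close to that range for Top2a and Ccnb1, and below every untreated library for Mki67. Ccne2 went the other way in replicates 2 and 3, with 13.8, 29.2 and 32.6 CPM in IFNa libraries, against 17.7, 18.0 and 20.9 CPM in untreated libraries (0.42 ± 0.28, adjusted p = 0.885). With IFNa replicate 1 left out, the medians were -0.03 for S phase and -0.03 for mitosis genes. The mature hepatocyte genes given above were high in the same library, and their part in its low member levels was not tested. Combination replicate 1 had as high a sum of these genes (1979 CPM, against 1936 CPM in IFNa replicate 1). Its medians were 95.3% of the untreated mean for S phase and 84.3% for mitosis genes. These libraries also differed in treatment and in pan-leukocyte genes (352 CPM, against 73.2 CPM in IFNa replicate 1). What set their member levels apart was not tested.

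Combination libraries were the most uniform and lay close to untreated libraries, with mitosis genes somewhat lower and a pair of G1 and S phase cyclins higher. The median coefficient of variation over members was 4.12% among combination libraries, against 38.7% among IFNa, 12.2% among antiPD1 and 12% among untreated libraries. No member passed against untreated libraries, where 7.58% of all genes were called higher and 5% lower. An unadjusted p under 0.05 was reached by 2 members (3.7%), Ccnd1 and Ccne2, and by 4558 of 14330 genes (31.8%). A negative log2 fold change was found in 43 of 54 members (79.6%), against 51.2% of all genes, with a median of -0.23 over mitosis and -0.07 over S phase genes. All 3 combination libraries were below all untreated ones for 18 members (33.3%, against 24.8% of all genes) and above them for 3 (5.56%, against 24.7%), namely Ccnd1, Ccne2 and Cdc6.

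Ccnd1, the cyclin that carries growth signals into G1, had 562.5, 659 and 708 CPM in combination libraries, against 343, 362 and 445 CPM in untreated libraries (0.75 ± 0.24, adjusted p = 0.0641). Ccne2, the second E-type cyclin, had 34.2, 32.9 and 34.9 CPM in combination libraries, against 17.7, 18.0 and 20.9 CPM in untreated libraries (0.85 ± 0.28, adjusted p = 0.0673). Ccne2 was singled out after its values were seen, and its exons overlap those of Ints8 on the opposite strand by 609 bases. Its paralog Ccne1 had 27.1, 28.7 and 28.2 CPM in combination libraries, against 41.5, 36.5 and 31.1 CPM in untreated libraries (-0.38 ± 0.23, adjusted p = 0.275). The E-type cyclins thus had log2 fold changes of opposite sign, each with separate groups, and neither passed. In antiPD1 libraries Ccnd1 had 473, 539 and 261 CPM and Ccne2 24.1, 28.8 and 16.7 CPM, with replicate 3 the lowest for both and below every untreated library. Against untreated libraries Ccnd1 had a log2 fold change of 0.15 ± 0.24 and Ccne2 of 0.30 ± 0.28 in antiPD1.

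The 3 genes that fell in antiPD1 libraries did not pass in combination libraries, a comparison that shares the untreated libraries. Ccnb1 had 68.7, 71.3 and 69.8 CPM in combination libraries, against 112, 82.5 and 99.8 CPM in untreated libraries (-0.49 ± 0.25, adjusted p = 0.196). Cdc25c had 8.68, 8.06 and 7.83 CPM in combination libraries, against 13.1, 9.99 and 11.4 CPM in untreated libraries (-0.49 ± 0.26, adjusted p = 0.220). Cdc20 had 52.1, 64.2 and 54.8 CPM in combination libraries, against 85.8, 69.0 and 71.9 CPM in untreated libraries (-0.41 ± 0.22, adjusted p = 0.229). The groups did not overlap for any of them. Without IFNa replicate 1, 6 members passed in combination against untreated libraries: Ccne2 higher and Ccnb1, Cdc25c, Plk1, Cdc20 and Tpx2 lower, with 9.84% of all genes called higher and 7.97% lower. Without antiPD1 replicate 3, Ccnd1 and Ccne2 passed, with 12% of all genes called higher. DESeq2 called the same pair, and 12.5% of all genes, higher. Fitted to combination and untreated libraries alone, 10 members passed (3 higher, 7 lower), against 14.2% of all genes higher and 13% lower. With both libraries left out, 11 members passed (2 higher, 9 lower), against 15.7% higher and 13.5% lower. With combination replicate 1 left out as well, 4 members passed, Ccnd1 and Ccne2 higher and Ccnb1 and Plk1 lower, against 11.3% higher and 7.94% lower. Afp had 5762, 6921 and 5703 CPM in combination libraries, against 10866, 10763 and 9612 CPM in untreated libraries (-0.76, adjusted p = 0.0159), and Gpc3 had 251.4, 354.5 and 206.3 CPM in combination libraries, against 503.6, 463.7 and 453.8 CPM in untreated libraries (-0.81, adjusted p = 0.0737). Their part in the member levels was not tested.

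**Figure D3:**
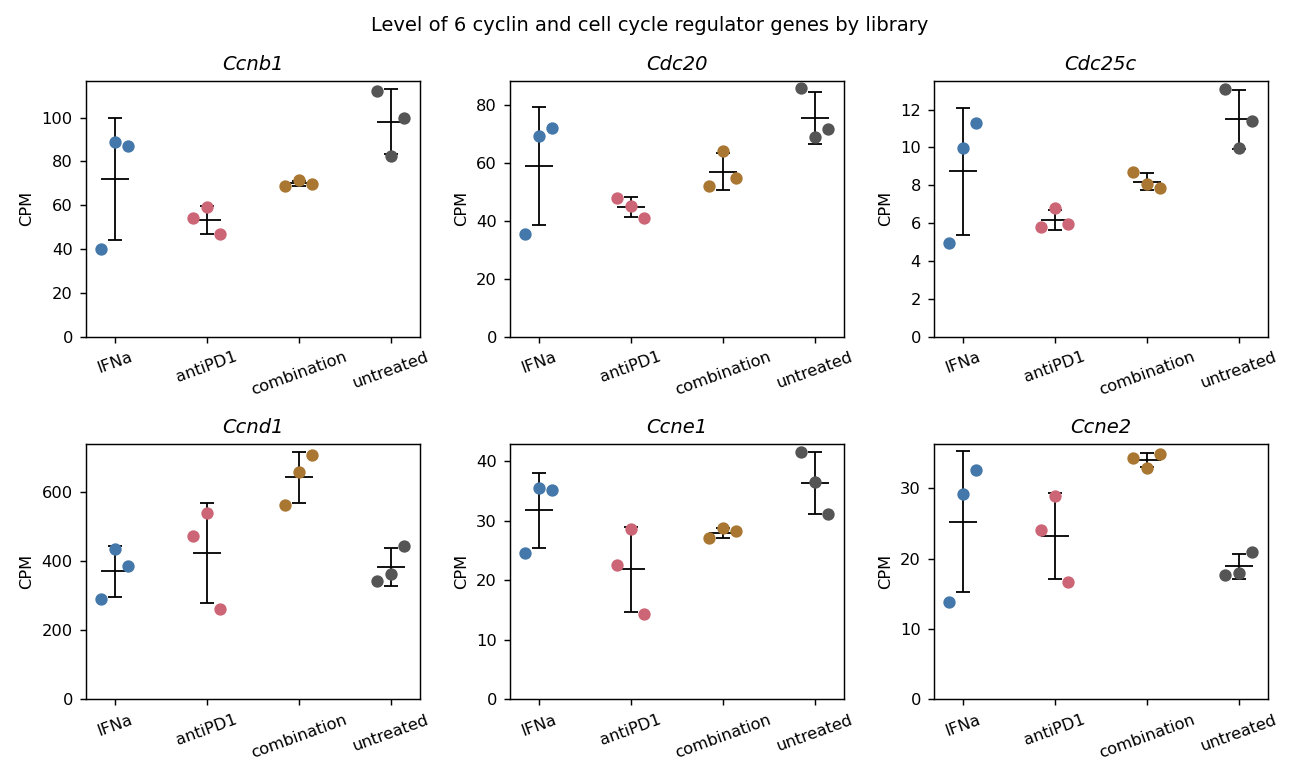
Level in CPM of Ccnb1, Cdc20, Cdc25c, Ccnd1, Ccne1 and Ccne2 in each library (points), with the mean and SD of each group of 3 (lines). For Ccnb1, Cdc20 and Cdc25c all antiPD1 points lie below all combination points, which lie below all untreated points, and Ccnd1 and Ccne2 are highest in combination.

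Set directly against antiPD1 libraries, combination libraries had higher levels of all 54 members, against 6684 of 14330 genes, but no member passed. edgeR called 0 members and 0% of all genes in either direction, with 3 members and 682 of all genes at an unadjusted p under 0.05, and DESeq2 also called 0 members. The median log2 fold change was 0.34 over mitosis and 0.23 over S phase genes, against -0.02 over all genes. Every combination library lay above every antiPD1 library for 39 of 54 members (72.2%), against 7.49% of all genes. The 39 were 29 of 33 mitosis genes, 9 of 20 S phase genes and Ccnd1. Ccnb1 had 68.7 to 71.3 CPM in combination libraries, against 46.7 to 59.4 CPM in antiPD1 libraries. Pan-leukocyte genes summed to 336 to 352 CPM in combination libraries, against 227, 275 and 728 CPM in antiPD1 libraries, and their part was not tested. With IFNa replicate 1 and antiPD1 replicate 3 left out, the medians were 0.33 for mitosis and 0.21 for S phase genes, and all 54 were still higher.

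Against IFNa libraries, 37 of 54 members were higher in combination libraries, as were 7462 of 14330 genes. No member passed, when 0.342% of all genes were called higher and 0.614% lower. The median log2 fold change was 0.25 over S phase and 0.06 over mitosis genes. Every combination library was above every IFNa library for 7 members (13%), against 20.3% of all genes. Ccnd1, with 562.5 to 708 CPM in combination and 291 to 436 CPM in IFNa libraries, had the smallest adjusted p of the members (0.79, adjusted p = 0.0991). With IFNa replicate 1 left out the medians were -0.02 for S phase and -0.22 for mitosis genes. With antiPD1 replicate 3 left out too, 42 of 54 members were lower in combination libraries, with medians of -0.04 for S phase and -0.24 for mitosis genes. The direction of this comparison rested on IFNa replicate 1.

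The interaction asks whether IFNa and antiPD1 together differ from the sum of each alone. It was positive for all 54 members, against 6575 of 14330 genes. Its median was 0.54 over S phase and 0.67 over mitosis genes, against -0.03 over all genes, and it ranged from 0.13 for Ccne2 to 1 for E2f8. None passed, the smallest adjusted p was 0.772, and edgeR called 0% of all genes in either direction. An unadjusted p under 0.05 was reached by 10 members and by 868 of 14330 genes, and DESeq2 called 0 members. Without IFNa replicate 1 and antiPD1 replicate 3 the medians were 0.23 over S phase and 0.31 over mitosis genes, and 48 of 54 members were positive.

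S phase was then set against mitosis within each library, as the mean log2 CPM of the 20 S phase genes minus that of the 33 mitosis genes. The difference was 0.15, -0.19 and -0.18 in IFNa, 0.01, 0.15 and 0.07 in antiPD1, 0.05, -0.04 and 0.03 in combination and -0.24, -0.06 and -0.26 in untreated libraries. Every antiPD1 library and every combination library had a higher balance of S phase over mitosis genes than any untreated library. In IFNa the high value was that of replicate 1, where both scores were lowest. The group means were -0.08 ± 0.20 in IFNa, 0.08 ± 0.07 in antiPD1, 0.01 ± 0.05 in combination and -0.19 ± 0.11 in untreated libraries. Mitosis scores were 5.48, 5.67 and 5.53 in antiPD1 and 5.86, 5.93 and 5.89 in combination, against 6.28, 5.92 and 6.13 in untreated libraries. S phase scores were 5.49, 5.82 and 5.60 in antiPD1 and 5.91, 5.89 and 5.93 in combination, against 6.04, 5.86 and 5.88 in untreated libraries. The S phase score of antiPD1 replicate 2 came near the untreated range, and those of the combination libraries lay inside it. With narrower lists of 14 S phase and 26 mitosis genes, the means were 0.49 ± 0.20 in IFNa, 0.72 ± 0.11 in antiPD1, 0.62 ± 0.04 in combination and 0.44 ± 0.12 in untreated libraries. With these lists combination replicate 2 (0.57) lay below untreated replicate 2 (0.58), so combination and untreated libraries overlapped, whereas every antiPD1 library (0.59 to 0.79) still lay above every untreated one.

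**Figure D4:**
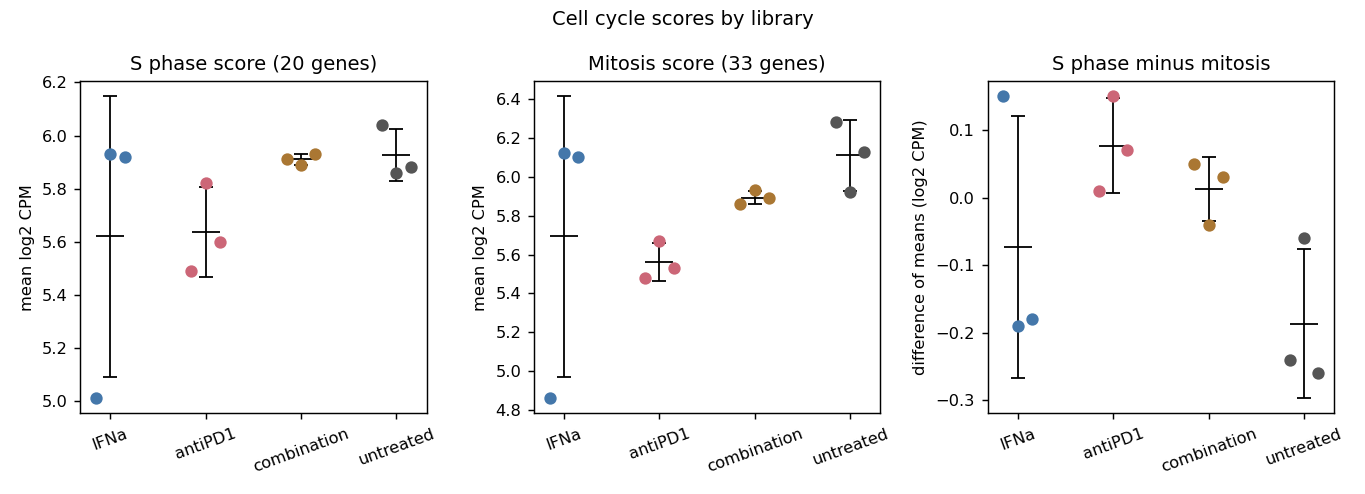
Mean log2 CPM over the 20 S phase genes, over the 33 mitosis genes, and their difference, for each library (points), with the mean and SD of each group of 3 (lines). The difference lies above every untreated library in all antiPD1 and combination libraries, and IFNa replicate 1 has the lowest score in both gene sets.

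Other genes of the pathway, from lists drawn up beside the 54, were mostly lower in antiPD1 as well. Of 42 other mitosis genes, 41 had a negative log2 fold change in antiPD1 against untreated libraries (median -0.43), 31 (73.8%) were lower in every antiPD1 library than in any untreated one, against 18.5% of all genes, and 3 (7.14%) fell, against 5.08% of all genes. These were Nek2, a centrosomal kinase (-0.67 ± 0.18, adjusted p = 0.0336), Pttg1, the securin that restrains sister chromatid separation (-0.76 ± 0.21, adjusted p = 0.0381), and Ckap2, a spindle-associated protein (-0.69 ± 0.19, adjusted p = 0.0394). Of 30 other S phase genes, 28 had a negative log2 fold change (median -0.28) and 1 (3.33%, against the same 5.08%) fell, the clamp loader subunit Rfc3 (-0.56 ± 0.15, adjusted p = 0.0344). Pttg1 had 70.9, 76.2 and 57.4 CPM in antiPD1 libraries, against 133.5, 113 and 101.2 CPM in untreated libraries. All 4 lost their call when untreated replicate 1 or 2, or antiPD1 replicate 3, was left out, and each lost it in 7 to 9 of the 12 fits that left out 1 library. With antiPD1 and untreated libraries fitted alone, these 4 and the other 3 pathway genes called in antiPD1, Ccnd2, E2f7 and Cdkn2b, each had an adjusted p of 0.107, and none passed. By limma on log2(FPKM + 1), Rfc3, Pttg1, Nek2, Ckap2 and E2f7 also missed the threshold, with adjusted p-values of 0.0714 to 0.105. In combination against untreated libraries 0 of the 42 mitosis and 0 of the 30 S phase genes passed.

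Of 14 G1 cyclins, kinases and regulators, 1 rose and 1 fell (7.14% each) in antiPD1 and likewise in combination against untreated libraries. Of all genes, 9.76% were called higher and 5.08% lower in antiPD1, and 7.58% and 5% in combination. Ccnd2 was the gene that rose. This D-type cyclin, which is also abundant in lymphocytes, had 27.6, 24.6 and 32.4 CPM in antiPD1 libraries and 35.4, 40.9 and 43.8 CPM in combination libraries, against 9.01, 8.46 and 15.3 CPM in untreated libraries. It rose in antiPD1 (1.37 ± 0.21, adjusted p = 0.0176) and in combination libraries (1.87 ± 0.22, adjusted p = 0.00709), and in combination against IFNa libraries (1.27 ± 0.21, adjusted p = 0.0284), where IFNa libraries had 15.1, 18.4 and 16.2 CPM. T cell genes, of which 8 of 8 rose in antiPD1 and 3 of 8 in combination libraries and none was at 0 in any library, had summed levels of 50.4 to 253 CPM in antiPD1 and 80.3 to 104.3 CPM in combination libraries, against 24.1 to 28.8 CPM in untreated libraries, and their part in the level of Ccnd2 was not tested. The rise in antiPD1 missed the threshold without untreated replicate 1 (1.25, adjusted p = 0.0861) or 2 (1.21, adjusted p = 0.0860). The rise over IFNa missed it without any 1 library of either group, with adjusted p-values of 0.0618 to 0.132. In combination against untreated libraries it passed with each library left out in turn.

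E2f7, an atypical E2F that represses S phase genes, fell in antiPD1 libraries (9.88, 9.50 and 8.35 CPM, against 13.4, 17.7 and 14.6 CPM in untreated libraries; -0.72 ± 0.20, adjusted p = 0.0351). Myc, the growth-promoting transcription factor, fell in combination libraries (88.8, 103.4 and 103.5 CPM, against 170.0, 213 and 146 CPM in untreated libraries; -0.84 ± 0.23, adjusted p = 0.0383). Both missed the threshold without untreated replicate 1 or 2. E2f7 also missed it without antiPD1 replicate 2 or 3 or combination replicate 3 and with the 3 libraries high in hepatocyte genes left out (adjusted p = 0.0604), and Myc without any 1 of the combination libraries or by limma on log2(FPKM + 1) (adjusted p = 0.0663).

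A list of 19 genes held inhibitors of cyclin-dependent kinases, pocket proteins and related regulators such as Lin9, E2f4, Wee1 and Fzr1. Of these 19, 1 (5.26%) fell in antiPD1 and in combination libraries, against 5.08% and 5% of all genes. Cdkn2b, the inhibitor p15 of the G1 kinases, had 41.8, 47.5 and 25.7 CPM in antiPD1 libraries and 40.9, 46.5 and 38.3 CPM in combination libraries, against 85.8, 68.2 and 69.4 CPM in untreated libraries. It fell in antiPD1 (-0.96 ± 0.23, adjusted p = 0.0247) and in combination libraries (-0.83 ± 0.22, adjusted p = 0.0388). The median over the 19 genes was -0.03 in antiPD1 and -0.11 in combination, beside -0.01 over all genes in each. Leaving out antiPD1 replicate 3 ended the call in antiPD1 (-0.73, adjusted p = 0.0680), as did leaving out untreated replicate 1 or 2. In combination the call was lost without untreated replicate 1 or 2, IFNa replicate 2 or any 1 combination library, and by limma on log2(FPKM + 1) (adjusted p = 0.0975).

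Of 13 p53-linked and antiproliferative genes, 2 (15.4%) fell in combination against untreated libraries, when 5% of all genes were called lower. Ccng2, an atypical cyclin that is high in resting cells, had 49.8, 48.9 and 50.1 CPM in combination libraries, against 93.0, 72.1 and 75.4 CPM in untreated libraries (-0.69 ± 0.17, adjusted p = 0.0307). Btg1, an antiproliferative cofactor of messenger RNA decay, had 284, 301 and 303.5 CPM in combination libraries, against 391, 417 and 373 CPM in untreated libraries (-0.41 ± 0.11, adjusted p = 0.0409). Ccng2 also fell in combination against IFNa libraries, which had 127, 77.6 and 81.7 CPM (-0.95 ± 0.17, adjusted p = 0.0352). Both calls against untreated libraries were lost without any 1 combination library and without untreated replicate 1 or 2. By limma on log2(FPKM + 1), Ccng2 had an adjusted p of 0.0634 and Btg1 of 0.134. Btg1 also missed the threshold with the replicate block (adjusted p = 0.0536) and with no low-count filter (adjusted p = 0.05). The call of Ccng2 against IFNa libraries was lost without any 1 combination library, IFNa replicate 3 or antiPD1 replicate 2.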

How the data were processed

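RNA sequencing libraries of total RNA were grouped by the treatment in the sample labels, 3 per group, and columns were matched to samples by name. The submitters' processing notes name the mm10 build, the aligner HISAT2 (2.1.0), Cufflinks and HTSeq. Which annotation and strand setting were used is not given in the sources used here. Counts as deposited by the authors are whole numbers per gene and library (31.3 to 38.5 M in all, M for mega), and the deposited FPKM scale fragments by gene length and library size. The number of columns of other samples was 0, and no library pair agreed within sampling noise.

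In R 4.3.3, counts were filtered with filterByExpr (minimum count 10), scaled by TMM and fitted in edgeR 4.0.16 with a mean for each group, using all 12 libraries. Tests were robust quasi-likelihood F tests, and a gene was called at a Benjamini-Hochberg adjusted p below 0.05 over 14330 genes. Scores are means of log2 CPM with a prior count of 2 and have no test. The procedure was tested on simulated data. These had no outlying library and no admixed tissue, so they do not cover calls that depend on single libraries. The members, the lists and the tests were chosen with earlier results of these data known. Values in every library are given for members that passed, for the member with the smallest p in each role against untreated libraries, and for 8 genes picked by name; of the pathway lists, genes that passed are named, and 1 gene of these lists is not reported here. Alternatives were no low-count filter, RLE size factors, only the groups compared, DESeq2 1.42.0, a replicate block, limma 3.58.1 on log2(FPKM + 1) and log2(FPKM + 0.1) with a minimum of 1 FPKM in 3 libraries, the first also without that filter, narrower score lists, and leaving out each library. Leaving out IFNa replicate 1 and antiPD1 replicate 3 together, and these with combination replicate 1, was added after the data were seen. Gene coordinates are from GENCODE M21 (mm10), which matched 54 of 54 members by symbol, and 10 members share exon bases with another gene of the table. Promoters are from RefSeq GRCm38.p6.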

Additional observations from a re-analysis of the deposited data

Results flagged for a closer look

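IFNa given alone and IFNa given on top of antiPD1 had opposite signs for 23 members, with every library of the treated group on 1 side of the mean of its comparator in each case. Among genes with values in every library, the interaction (log2) was 0.56 for Ccne1, 0.54 for Mcm2, 0.58 for Mcm7, 0.84 for Ccnb1, 0.80 for Cdc25c, 0.71 for Cdc20, 0.70 for Kif20a and 0.70 for Top2a. For Ccnb1 the log2 fold change was 0.39 for combination against antiPD1 and -0.45 for IFNa against untreated libraries. The same held for antiPD1 with and without IFNa in 28 members, among them Mcm2 (0.54), Mcm7 (0.58), Rrm2 (0.69), Cenpf (0.90), Kif20a (0.70), Mki67 (0.85) and Top2a (0.70). For Mki67 the log2 fold change was 0.41 for combination against IFNa and -0.44 for antiPD1 against untreated libraries. The interaction was tested with edgeR for each gene, and none passed, with adjusted p-values of 0.799 to 0.817 for the genes named here. With IFNa replicate 1 and antiPD1 replicate 3 left out, the median interaction was 0.23 over S phase and 0.31 over mitosis genes. It was 0.54 and 0.67 with all libraries. With the same libraries left out, combination against IFNa turned negative for Mcm7 (-0.13), Rrm2 (-0.16), Cenpf (-0.09), Kif20a (-0.22) and Top2a (-0.01). It stayed positive for Mcm2 (0.06) and Mki67 (0.09). In the genes named for IFNa, IFNa against untreated libraries was then -0.13 to -0.01. Combination against antiPD1 stayed positive in them. The share of all genes with opposite signs was not counted.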

How the results depend on the processing

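Members called in antiPD1 against untreated libraries numbered 3; they were 1 with no low-count filter (3.25% of all genes called lower and 6.69% higher), 0 with only the groups compared, 9 with DESeq2, and 0 with limma on log2(FPKM + 1), on log2(FPKM + 0.1) (2.89% lower and 6.27% higher) and on log2(FPKM + 1) without a filter (1.21% lower and 2.88% higher). They were 28 with IFNa replicate 1 and antiPD1 replicate 3 left out and 20 with combination replicate 1 left out as well. In combination against untreated libraries they numbered 0, but 10 with only the groups compared, 2 with DESeq2, 11 with those 2 libraries and 4 with all 3 left out. In combination against IFNa libraries they numbered 0, but 1 higher with only the groups compared (5.52% of all genes higher and 2.57% lower), 1 higher with DESeq2 (5.83% and 5.75%), 1 higher and 2 lower with those 2 libraries left out (4.26% and 4.81%) and 1 higher with all 3 left out (1.02% and 1.09%). Leaving out those 2 or all 3 also moved the S phase median to -0.04 or -0.05 there and to 0.23 or 0.25 in the interaction. Leaving out 1 library gave 0 to 32 calls in antiPD1 and 0 to 6 in combination against untreated libraries, and 0 to 1 in combination against IFNa. Against untreated libraries in antiPD1, E2f1 (-0.07) turned to 0.03 without antiPD1 replicate 1 and 0.05 without untreated replicate 1 (range -0.13 to 0.05 over the libraries left out), and Ccnd1 (0.15) to -0.06 without antiPD1 replicate 2 (range -0.06 to 0.41). With the replicate block 2 members were called in antiPD1, Ccnb1 (adjusted p = 0.0480) and Ccne1 (0.0457), and Cdc25c (0.0537) and Cdc20 (0.0527) missed, when 5.85% of all genes were called lower and 10.8% higher. The block changed the count of members called in no other comparison. Libraries of the same number varied together in 8 of 18 pairs (correlation over 0.1, median 0.06). Those of different number did so in 13 of 36 pairs (median -0.05). The labels do not say whether libraries of the same number were matched, and these correlations cannot settle it. For other changes the cause was not tested. The balance of S phase over mitosis in each treated group minus untreated kept its sign or was 0 under each alternative tried. The member with the fewest counts, Cdc25c, had 165 to 431 per library.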
